A study of Mus musculus with 18 samples.

Results

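The cytosolic ribosomal proteins are the proteins of the large and small subunits of the ribosomes that translate nuclear-encoded mRNAs. They were chosen here by symbol: Rpl or Rps followed by digits and at most 2 further letters, plus Rplp0 to Rplp2 and Rpsa, leaving out pseudogenes (symbols with -ps) and the Rps6k kinases. Measurements were made with Clariom D arrays, which carry short probes grouped into transcript clusters, and a cluster was used as the measure of a gene where it named that gene alone. On this basis 38 members were measured among 65956 transcript clusters, each by the cluster with the highest mean over the 18 arrays.

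The arrays held total RNA of whole livers of male C57BL/6J mice kept in light-dark cycles with food at all times, 1 mouse per array and 3 mice in each of 6 groups. HFN mice ate a high-fat diet (53% of kcal from fat) for 8 weeks and then also received NAD+, a redox cofactor and substrate of sirtuins, at 50 mg/kg by daily intraperitoneal injection at ZT11 for 3 weeks. ZT is the time in hours after lights on. HF mice ate the same diet and received saline by the same schedule, and CD mice ate chow and received saline. Livers were taken at ZT18, in the dark when mice feed, or at ZT6, in the light. The comparisons asked how the diet and the timed NAD+ treatment altered hepatic transcripts by day and by night, and they share arrays with each other.

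Ribosomal proteins are made in amounts that match one another and the ribosomal RNA, and their mRNAs are among the most abundant of a liver cell. Mammalian ribosomal protein mRNAs begin with a C in a run of pyrimidines, the 5′ terminal oligopyrimidine (TOP) motif, through which the kinase complex mTORC1 and the protein Larp1 govern their translation, and feeding raises mTORC1 activity in liver. Because that control acts on translation, the transcript levels given here do not report how much ribosomal protein was made.

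The start sites bear this feature on only some of the annotated transcripts. RefSeq promoters of GRCm38.p6 were found for 32 of the 38 members, 7 of them with more than 1 start. A start base C followed by at least 4 further C or T was found at 5 of the 32 (15.6%), against 2.65% of 17460 other protein-coding genes, and a run of at least 8 C or T that began with C within 10 bases of the start was found at 11 (34.4%), against 9.68%. The motif CCGGAAG, read on both strands of the 300 bases around the start, was present in 15 members (46.9%), against 12.9% of the other genes. TATAAA was found in 15.6% of members and 14.8% of other genes, and CACGTG in 6.25% of members and 8.92% of other genes. These letter matches describe the annotated sequence and are no evidence of use in these livers. The windows below run from 15 bases before the annotated start base to 14 bases after it and are shown for members described in the results, 4 with a run of at least 8 and then 3 with a shorter one. Capitals mark the longest pyrimidine run that begins with a C within 10 bases of the start.
Rps10, chr17:27635230-27635259, minus strand: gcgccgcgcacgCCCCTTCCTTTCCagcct
Rpl35, chr2:39005117-39005146, minus strand: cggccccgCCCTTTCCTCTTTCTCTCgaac
Rpl38, chr11:114668565-114668594, plus strand: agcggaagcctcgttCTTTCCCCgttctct
Rps9, chr7:3704026-3704055, plus strand: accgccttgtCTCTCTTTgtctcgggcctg
Rpl31, chr1:39367836-39367865, plus strand: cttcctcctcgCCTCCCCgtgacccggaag
Rpl12, chr2:32961697-32961726, plus strand: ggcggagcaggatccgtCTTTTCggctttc
Rps15, chr10:80292416-80292445, plus strand: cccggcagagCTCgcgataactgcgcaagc
All 7 were taken from the members whose HFN ZT18 arrays all lay above their HFN ZT6 arrays, so that long and short runs could be seen side by side. Rps20, the member with the strongest result below, had no entry in the promoter table.

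Ribosomal proteins have many near-identical processed copies in the mouse genome, and this bounded what the array could measure. Symbols of 77 ribosomal proteins were in the table of names, but 39 of them occurred only in the 53 clusters that named several genes. Those 53 clusters are given below as counts and medians without names. A transcript cluster's identifier carries a chromosome number, which was that of the RefSeq gene for 99.5% of 22423 clusters checked. It differed for 6 of the 38 members: Rpl12, Rpl27, Rpl31, Rpl35, Rpl41 and Rpl7a. The cluster named Rpl12, for example, carried chromosome 10, and the gene lies on chromosome 2, so the values of these 6 may come in part from copies elsewhere. Rpl6l is annotated by RefSeq as a pseudogene. Probes of a member may also bind RNA of copies that the names do not list, so a value is best read as the signal of that cluster.

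The deposited values are log2 signals, and their ceiling is 19.93. No member reached it on any array, whereas 116 of all clusters did. The highest value of a member was 16.54, for Rpl4 in 1 CD ZT6 liver. Levels of different clusters cannot be ranked against each other, since probes differ in brightness, and they are compared here only across arrays. Rpl3l and Rpl39l were at or below the median of the array's negative-control probe sets on all 18 arrays and Rpl10l on 3 of them. The other 35 members were above that median on all 18 arrays. Rpl4, which lines the peptide exit tunnel, had the identical value 16.29 on 8 of 18 arrays, the 3 HFN ZT18 arrays included, and no other cluster held that value, so its spread within a group is not that of separate measurements.

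HFN ZT18 replicate 1 stood apart by markers of leukocytes, and 5 other arrays by nuclear RNA and background. Over 9 measured markers of B, T and natural killer cells and neutrophils, the mean log2 level was 6.50 in HFN ZT18 replicate 1 and 4.37 to 4.68 on the other 17 arrays. By group it was 4.54 to 6.50 in HFN ZT18, 4.43 to 4.59 in HFN ZT6, 4.42 to 4.58 in HF ZT18, 4.42 to 4.68 in HF ZT6, 4.51 to 4.54 in CD ZT18 and 4.37 to 4.52 in CD ZT6. Ptprc (CD45) was at 10.22 in that replicate and at most 6.55 on the others, and the B cell gene Ms4a1 was at 8.67 and at most 4.22. On the other 17 arrays Ms4a1, Cd79a, Cd8a, Cd3e and Nkg7 did not exceed 4.43, below the lowest negative-control median of 4.58. Of the 9 markers 7 were highest in that replicate and the neutrophil genes S100a8 (4.39) and S100a9 (5.27) were not. On all arrays 9 hepatocyte markers averaged 18.72 to 18.96. Their median was 19.83 on every array, just under the ceiling of 19.93, so they cannot show whether hepatocyte RNA differed between arrays. That replicate was the highest of 18 arrays for 16 of the 38 members and for 28 of the 53 shared clusters, against 5.34% of all clusters. The main results that rest on HFN ZT18 are therefore given with and without it, and the part of the leukocyte RNA in them was not tested. In bulk liver RNA, fewer cells of a type and less RNA per cell cannot be told apart. Negative-control medians ran from 4.58 to 5.01 and were 4.61 ± 0.03 in HFN ZT18, 4.66 ± 0.08 in HFN ZT6, 4.65 ± 0.04 in HF ZT18, 4.90 ± 0.13 in HF ZT6, 4.83 ± 0.14 in CD ZT18 and 4.73 ± 0.19 in CD ZT6 (SD, n = 3 each). On the 5 arrays with the highest of these medians (HF ZT6 replicates 2 and 3, CD ZT18 replicates 2 and 3 and CD ZT6 replicate 3) the nuclear RNA Neat1 was at 11.09 to 15.16, against 7.06 to 8.35 on the other 13, and the mean of Neat1 and Malat1 was 14.23 to 16.62, against 11.63 to 12.83. HFN livers and HF ZT18 livers held none of these arrays. The part of nuclear RNA or background in a difference from CD or HF ZT6 livers was not tested, and medians without the 5 arrays are given where they turned.

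As a set, the ribosomal proteins differed little between the groups. The median over the 38 members was 8.70, 8.61 and 8.53 in the HFN ZT18 livers and 8.45, 8.49 and 8.33 in the HFN ZT6 livers. In HF mice it was 8.44, 8.44 and 8.63 at ZT18 and 8.54, 8.37 and 8.40 at ZT6. In CD mice it was 8.44, 8.44 and 8.55 at ZT18 and 8.52, 8.54 and 8.53 at ZT6. The HFN ZT18 livers lay above the HFN ZT6 livers without overlap, whereas the ZT18 and ZT6 livers of HF mice overlapped. The shared clusters had medians of 9.60, 9.23 and 9.05 in HFN ZT18 and 9.13, 9.12 and 9.003 in HFN ZT6, and replicate 1 was again the highest. HFN ZT18 was the highest of the 6 group means for 20 of 38 members, against 23.8% of all clusters, and the lowest for 0. Without replicate 1 it was the highest for 10 of 38, against 34.5% of all clusters, and CD ZT6 was then the highest for 11.

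**Figure D1:**
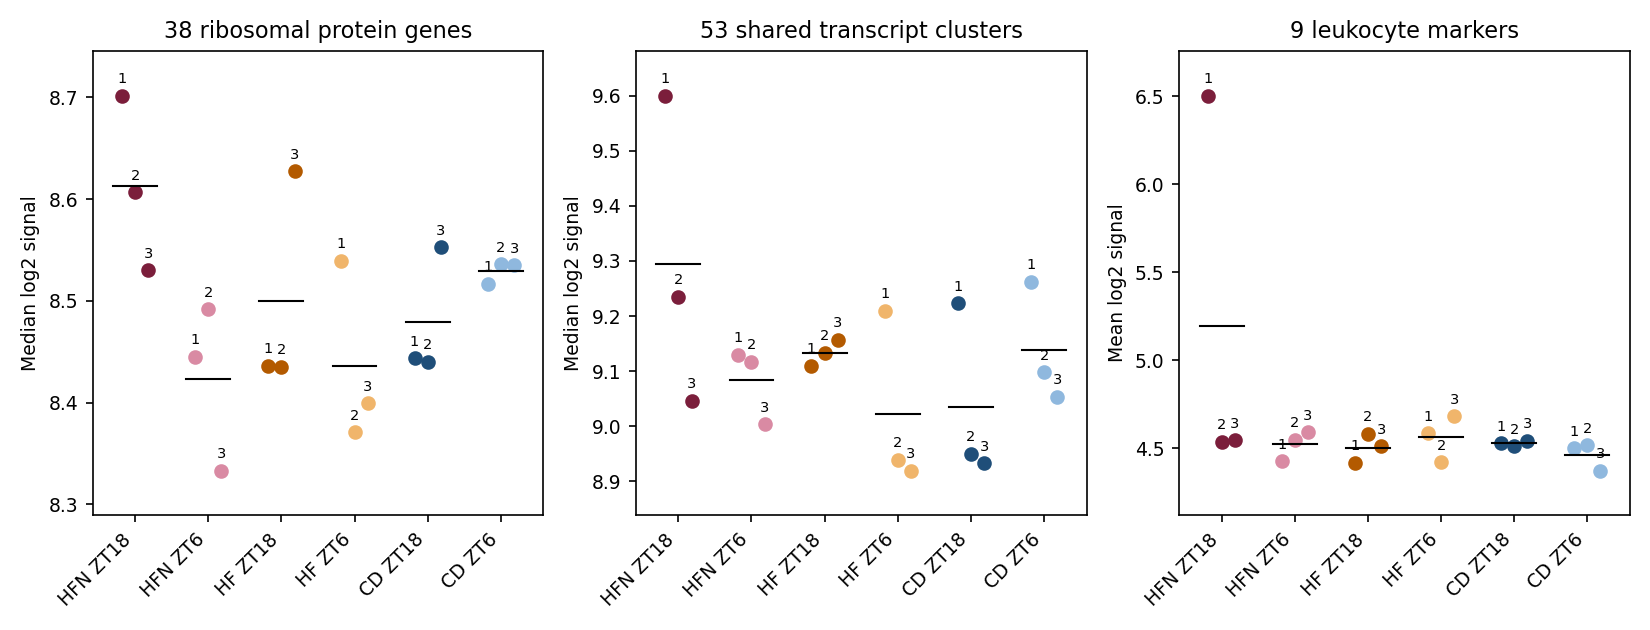
Median log2 signal of the 38 members (left), median of the 53 clusters shared between genes (middle) and mean of 9 leukocyte markers (right), with 1 point for each array in the 6 groups. HFN ZT18 replicate 1 is the highest array in all 3 panels, at 8.70, 9.60 and 6.50.

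Between groups, the members varied about as much as other clusters of similar brightness. The share of a member's variance that lay between the 6 groups had a median of 39.2%, against 38.5% for the clusters whose mean level was above the median of all clusters. The median of all clusters was 4.29 to 4.42 on the 18 arrays, below the negative-control medians. That set therefore reaches down to background levels and is not matched to the members in brightness. The member with the largest share was Rps10. The share was 76.2% for Rps10, 73.4% for Rps20 and 61.4% for Rpl12. The group means of Rpl41 spanned 1.12 on the log2 scale, those of Rps15 0.88, those of Rps26 0.83 and those of Rpl12 0.78. At the other end, Rpl3l spanned 0.05, Rps19 0.12, Rpl6 0.13 and Rpl11 0.13. Rpl3l is a muscle-specific replacement for Rpl3, and its range of 3.69 to 3.88 over the 18 arrays lay below the negative-control medians. Rps19, the gene most often mutated in Diamond-Blackfan anemia, ranged from 5.56 to 5.92. Within groups, the members varied together only loosely. Of their pairs, 504 of 703 had a correlation of residuals above 0, with a median r of 0.256 over 18 arrays that share normalization and the 1 library set apart above. The closest pair was Rpl7 and Rps4x (r = 0.949), and Rps10 and Rps29 had r = 0.898.

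**Figure D2:**
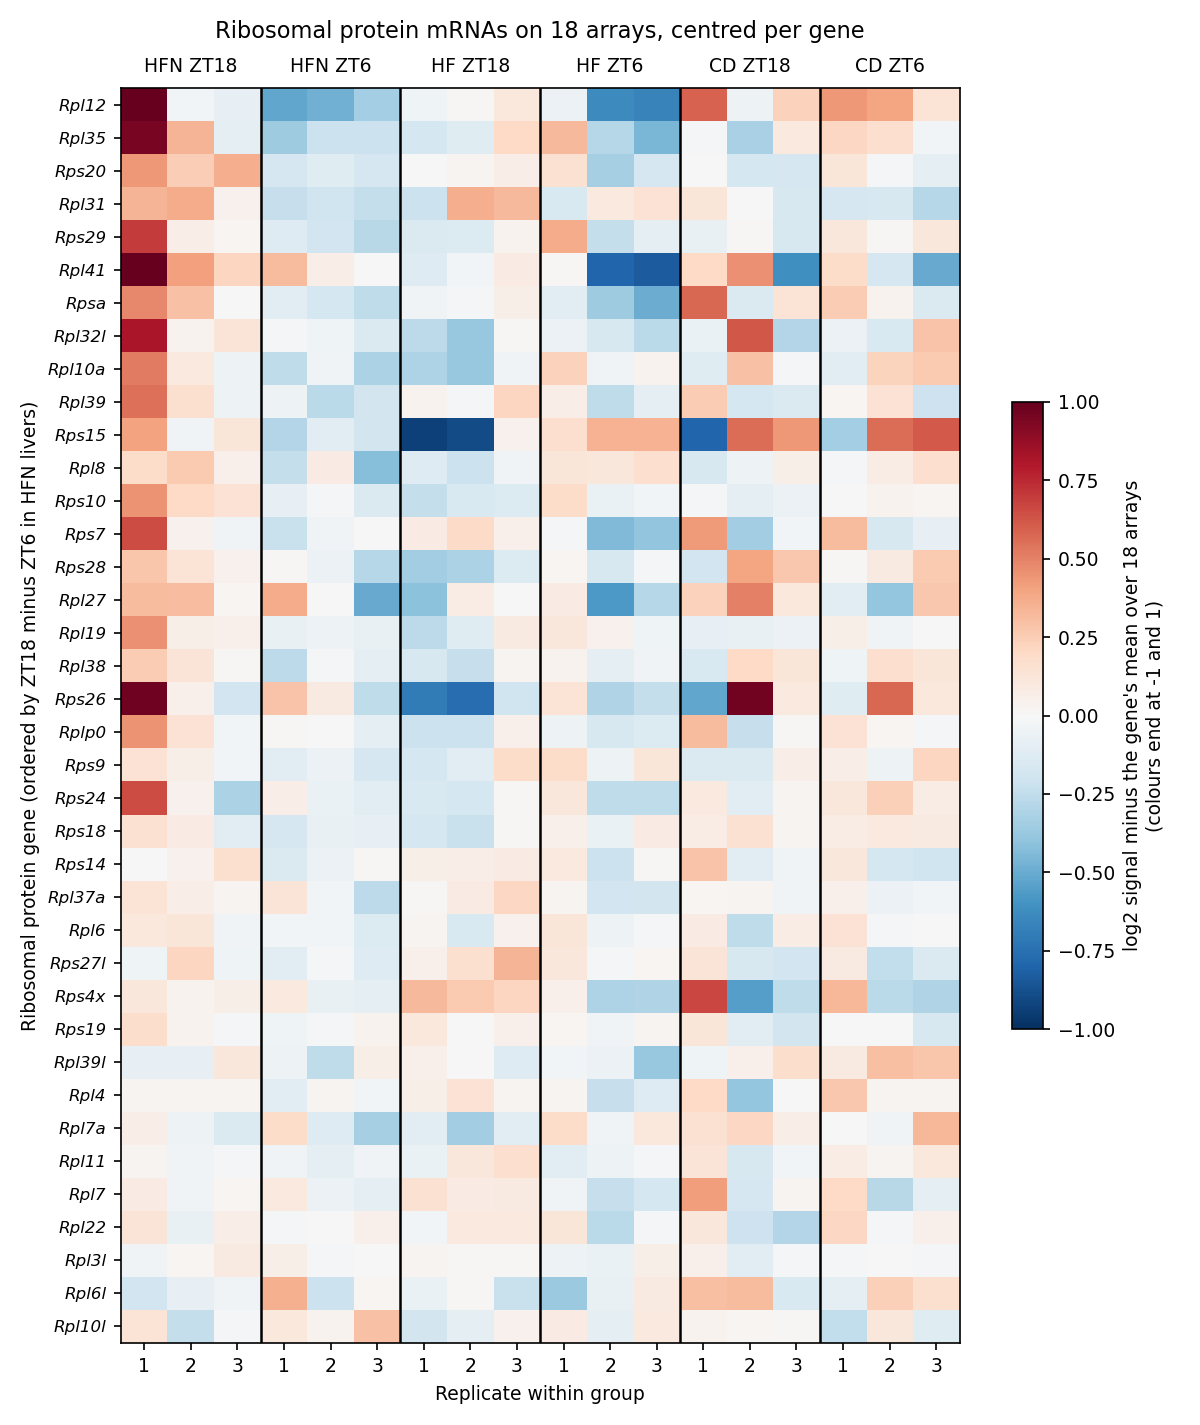
Log2 signal of each of the 38 members (rows) on each of the 18 arrays (columns, by group), drawn as the difference from the member's mean over all arrays. HFN ZT18 replicate 1 is the highest array for 16 of the 38 rows, and no single group forms a block across all rows.

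The largest median difference was between night and day in HFN mice, though no single member passed the test. ZT18 livers exceeded ZT6 livers in 36 of 38 members, with a median difference of 0.23 on the log2 scale, against 53.3% above 0 and a median of 0.01 over all clusters. A change was called where limma's adjusted p over all clusters was under 0.05 and the fold over 1.25. By that rule 0 members were called in HFN mice, against 0.246% of all clusters, and 10 members passed at an unadjusted p, against 4.11% of all clusters. All 10 were higher at ZT18, against 2.84% of all clusters: Rpl10a, Rpl12, Rpl31, Rpl35, Rpl39, Rpl8, Rps10, Rps20, Rps29 and Rpsa. The 3 ZT18 livers lay above the 3 ZT6 livers without overlap for 14 members, against 6.67% of all clusters. They were Rpl11, Rpl12, Rpl19, Rpl31, Rpl32l, Rpl35, Rpl38, Rps10, Rps15, Rps20, Rps28, Rps29, Rps9 and Rpsa. Without HFN ZT18 replicate 1 the median fell to 0.12 with 32 of 38 above 0, against a median of 0.04 over all clusters, and 3 members passed at an unadjusted p against 4.42% of all clusters higher. After quantile normalization of all arrays the median was 0.12 in this comparison and 0.07 for HFN against HF at ZT18. Markers of other liver cells moved with the night in HFN mice as well. The mean of 6 sinusoidal endothelial markers was 8.60 to 8.97 in HFN ZT18 livers, against 8.31 to 8.41 in HFN ZT6 livers, and that of 7 stellate cell markers was 7.20 to 7.48, against 6.99 to 7.14. Neither overlapped, with 4 of 6 and 6 of 7 markers above 0, and 9 of 11 Kupffer cell markers were above 0 (6 of 11 without replicate 1). From ZT6 to ZT18, 0 of 11 Kupffer cell markers were above 0 in HF mice (median -0.85) and in CD mice (median -0.43). The members' medians there were 0.04 and -0.01. The part of these cells' RNA in the members' difference in HFN mice was not tested.

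At ZT18, HFN livers also exceeded HF livers in most members. The median difference was 0.16 and 30 of 38 were above 0, against 0.02 and 55.5% over all clusters. In this comparison limma called 0 members and 0% of all clusters, and at an unadjusted p 6 members passed against 2.81% of all clusters. These 6 were Rpl10a, Rpl32l, Rps10, Rps15, Rps26 and Rps28, all higher in HFN livers, where 2.08% of all clusters were. HFN livers lay above HF livers without overlap for 7 members (Rpl32l, Rpl41, Rpl8, Rps10, Rps20, Rps26 and Rps28), against 6.28% of all clusters, and below them for Rpl7 and Rps4x. Leaving out replicate 1 moved the median to 0.06, against 0.05 over all clusters, with 25 of 38 above 0 and 2 members passing at an unadjusted p against 3.49% of all clusters higher. The members then stood where other clusters stood. Over 11 Kupffer cell markers the mean level was 7.95 to 8.67 in HFN ZT18 livers, against 7.92 to 8.04 in HF ZT18 livers, and 9 of the 11 were above 0 in this comparison, with a median of 0.43. Endothelial markers averaged 8.60 to 8.97 in HFN ZT18, against 8.25 to 8.34 in HF ZT18, with 5 of 6 above 0, and stellate cell markers 7.20 to 7.48, against 7.03 to 7.09, with 7 of 7 above 0. Without replicate 1 the endothelial gene Lyve1 still differed by 1.88 (adjusted p = 0.339). Their part in the result was not tested.

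**Figure D3:**
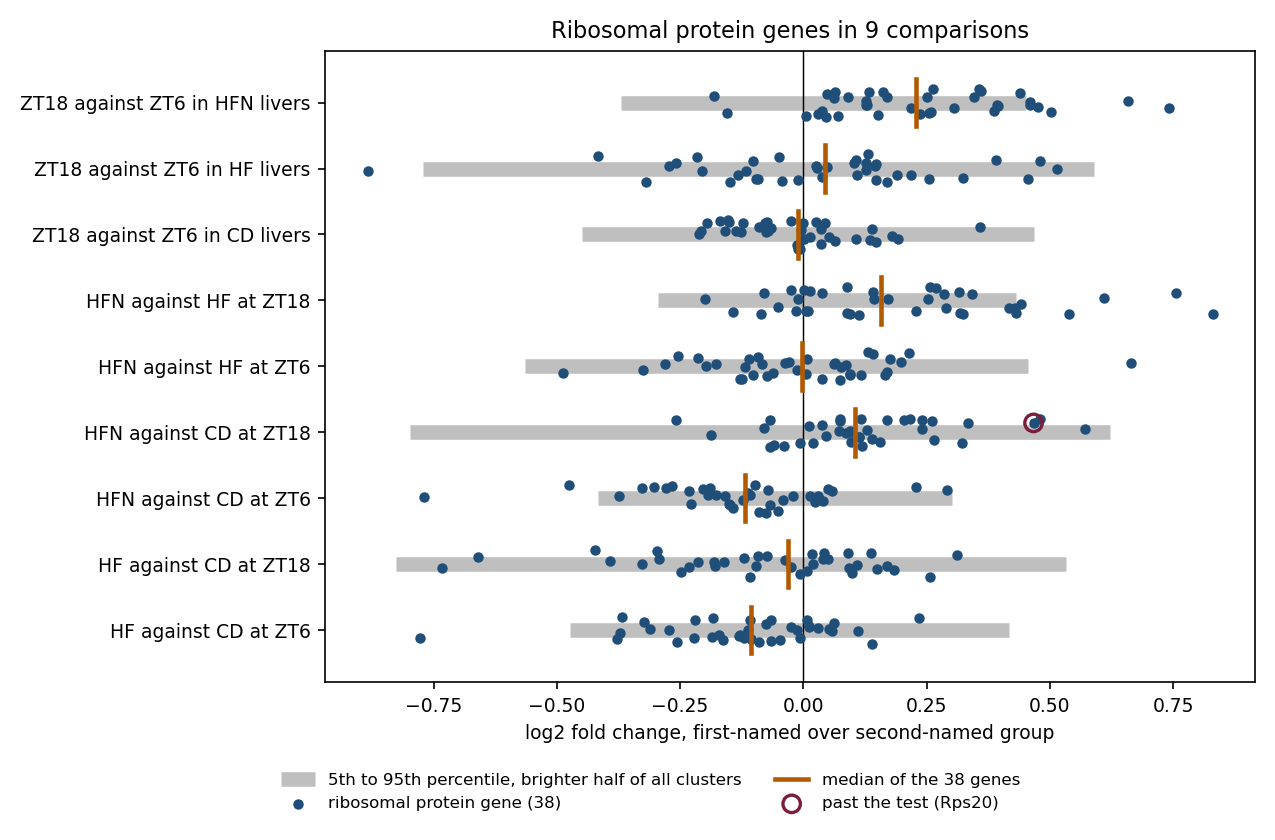
Log2 fold change of each member (points) in the 9 pairwise comparisons, the group named first over the other, with the members' median in orange and a grey band for the range from the 5th to the 95th percentile of the clusters above the median level. Rps20 is circled. The members' median is 0.23 for ZT18 against ZT6 in HFN livers and lies between -0.12 and 0.16 in the other 8.

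HFN and CD livers at ZT18 gave the single call. Rps20 was higher in HFN livers, and 1 of 38 members is to be read against 1.06% of all clusters called. The same member was the 1 that passed at an unadjusted p, against 10% of all clusters, and against 5.38% of all clusters higher. The median difference over members was 0.10 with 30 of 38 above 0, and HFN livers lay above CD livers without overlap for Rpl19, Rpl37a, Rps10, Rps20 and Rps29, 5 members against 8.45% of all clusters. Without replicate 1, the median was 0.04 with 21 of 38 above 0, against a median of 0.05 over all clusters, and limma called 0 members, against 1.59% of all clusters, with 1 passing at an unadjusted p, against 7.48% of all clusters higher. Without the 5 arrays that had the highest negative-control medians, 2 of them CD ZT18 livers, the median was -0.02. Of the Kupffer cell markers 10 of 11 were above 0 here, with a median of 0.56. Endothelial markers averaged 8.60 to 8.97 in HFN ZT18, against 8.08 to 8.48 in CD ZT18, but only 3 of 6 were above 0 (median 0.05). Among them Lyve1 rose by 2.25 (limma adjusted p = 0.0252), or by 2.30 without replicate 1 (adjusted p = 0.0393). Stellate cell markers averaged 7.20 to 7.48, against 6.84 to 7.06, and the part of these cells' RNA in the members' difference was not tested. The other 37 members gave no call in this or any of the other 10 comparisons.

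**Figure D4:**
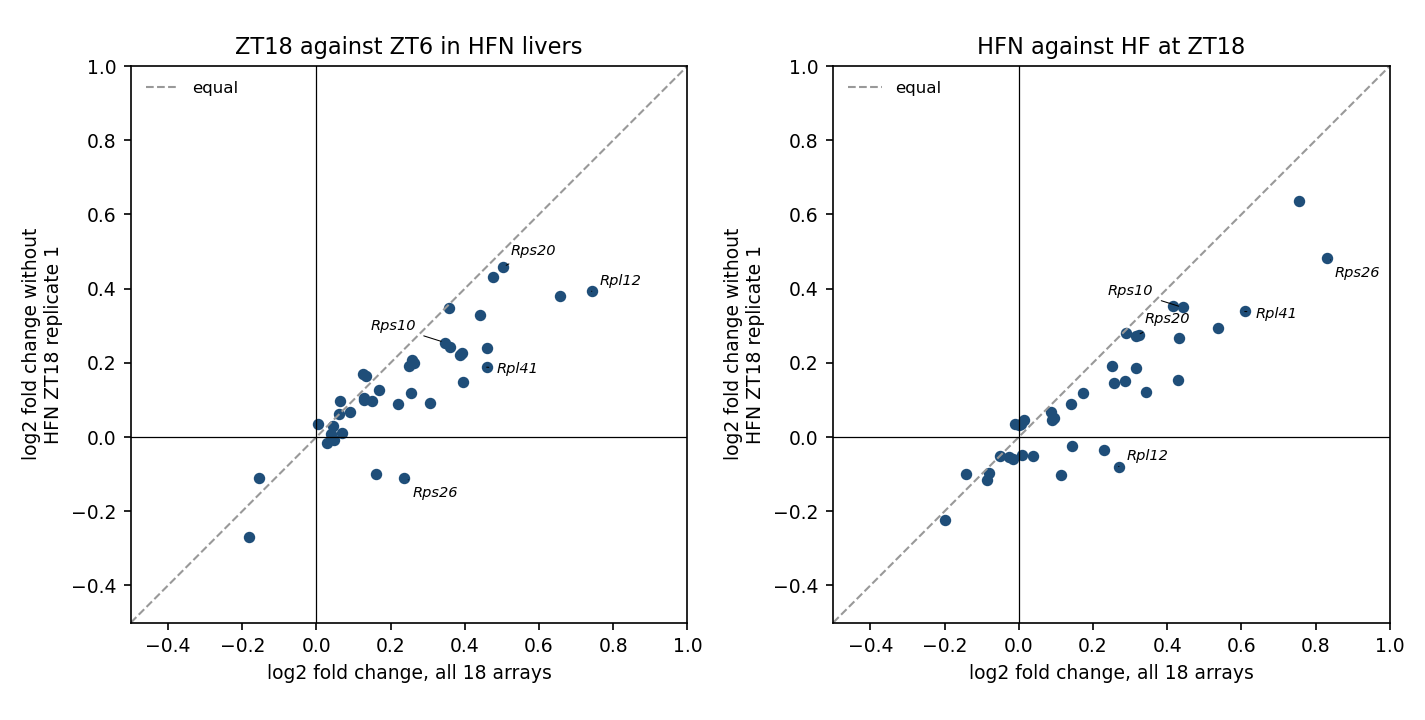
Log2 fold change of each member with all 18 arrays (horizontal axis) and without HFN ZT18 replicate 1 (vertical axis), for ZT18 against ZT6 in HFN livers and for HFN against HF at ZT18. The median moves to 0.12 without the array from 0.23 with all 18 for night against day, and to 0.06 from 0.16 for HFN against HF.

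Among the small-subunit proteins, Rps20 lies in the head of the subunit. Its levels were 7.67, 7.48 and 7.59 in HFN ZT18 livers, against 7.22, 7.05 and 7.06 in CD ZT18 livers. Every HFN liver was above every CD liver, and the difference was 0.47 (SE 0.10, 95% confidence interval 0.25 to 0.69, 1.38-fold, limma adjusted p = 0.046). The call was lost on leaving out any of 14 of the 18 arrays, with an adjusted p of up to 0.167, and without HFN ZT18 replicate 1 the difference was 0.42 with an adjusted p of 0.0927. In the other groups Rps20 was at 7.06, 7.11 and 7.06 in HFN ZT6, 7.24, 7.25 and 7.29 in HF ZT18, 7.39, 6.90 and 7.06 in HF ZT6, and 7.36, 7.21 and 7.14 in CD ZT6. The 3 HFN ZT18 livers were thus the highest of all 18. From ZT6 to ZT18 in HFN mice the difference was 0.50 (SE 0.10, adjusted p = 0.0708), and without replicate 1 it was 0.46 (adjusted p = 0.138). Against HF livers at ZT18 it was 0.32 (SE 0.10, adjusted p = 0.85), and 0.27 without replicate 1.

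Rps10, which also lies in the subunit head, was highest in the same group. It was at 6.56, 6.31 and 6.26 in HFN ZT18, 6.03, 6.09 and 5.97 in HFN ZT6, 5.87, 5.96 and 5.97 in HF ZT18, and 6.29, 6.04 and 6.08 in HF ZT6. CD livers were at 6.09, 6.02 and 6.05 at ZT18 and 6.10, 6.14 and 6.13 at ZT6. Of the 3 HFN ZT18 livers 2 were above all 15 livers of the other groups, and the third at 6.26 was below 1 HF ZT6 liver. The difference of HFN over HF at ZT18 was 0.44 (SE 0.08, adjusted p = 0.553) and 0.35 without replicate 1 (adjusted p = 0.267). From ZT6 to ZT18 it was 0.35 in HFN mice (adjusted p = 0.143, or 0.25 and 0.225 without replicate 1) and -0.20 in HF mice (adjusted p = 0.301), and the difference between these changes was 0.55 (adjusted p = 0.751), and 0.46 without replicate 1. Rps29, a zinc-binding protein of the head, was at 11.49, 10.86 and 10.81 in HFN ZT18, against 10.66, 10.60 and 10.51 in HFN ZT6, a difference of 0.46 (SE 0.17, adjusted p = 0.482). Without replicate 1 the difference was 0.24, and the other 2 HFN ZT18 livers still lay above all HFN ZT6 livers.

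Rps28, near the mRNA exit, was at 6.09, 5.95 and 5.85 in HFN ZT18 livers, against 5.46, 5.49 and 5.68 in HF ZT18 livers and 5.62, 6.20 and 6.08 in CD ZT18 livers. HF livers were below HFN livers without overlap, and HFN and CD livers overlapped. HFN exceeded HF by 0.42 (SE 0.13, adjusted p = 0.85), or by 0.35 without replicate 1, and HF differed from CD by -0.42 (SE 0.13, adjusted p = 0.195). Leaving out CD ZT18 replicate 1 brought the HF to CD difference of Rps28 to -0.60 with an adjusted p of 0.0122, and that of Rps15 to -1.09 (adjusted p = 0.0492) and of Rps4x to 0.67 (adjusted p = 0.0406). These calls appeared only in a fit that left out that array, which held the highest Rps4x and the third lowest Rps15 value of the 18. The CD ZT18 livers left in that fit, replicates 2 and 3, are among the 5 arrays of highest negative-control median. Their Neat1 was at 15.14 and 15.16, against 8.08 in CD ZT18 replicate 1, and no HF ZT18 liver is among those 5. The part of background or nuclear RNA in these calls was not tested.

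Rps15, a protein of the decoding region, was uneven within groups. It was at 8.03, 7.60 and 7.75 in HFN ZT18, 7.34, 7.52 and 7.45 in HFN ZT6, 6.70, 6.74 and 7.67 in HF ZT18, 7.80, 7.98 and 7.98 in HF ZT6, 6.84, 8.19 and 8.06 in CD ZT18, and 7.29, 8.19 and 8.25 in CD ZT6. HF livers at ZT18 were all below HF livers at ZT6, by -0.88 (SE 0.34, adjusted p = 0.276). On the 5 arrays with the highest negative-control medians (4.91 to 5.01) Rps15 was at 7.98 to 8.25, and on the other 13 at 6.70 to 8.19. Rps4x, encoded on the X chromosome, ran the other way, at 8.54 to 8.83 on those 5 arrays and 8.81 to 9.75 on the other 13. The residuals of Rps15 and Rps4x within groups had a correlation of -0.833 over 18 arrays. These are also the 5 arrays of high nuclear RNA. CD ZT6 replicate 2, which is not among them (negative-control median 4.60, Neat1 7.44), had Rps15 at 8.19 and Rps4x at 8.81. CD ZT6 replicate 3, which is among them, had 8.25 and 8.78. The part of array background and nuclear RNA in these values was not tested.

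Rps26, at the mRNA exit channel, was at 13.49, 12.57 and 12.32 in HFN ZT18 livers, against 11.81, 11.75 and 12.32 in HF ZT18 livers. The HFN livers were higher by 0.83 (SE 0.35, adjusted p = 0.871), and by 0.48 without replicate 1. Night against day in HFN mice gave 0.24 for Rps26, and -0.11 without replicate 1. Rpsa, which also serves as the precursor of the laminin receptor, was at 10.97, 10.79 and 10.49 in HFN ZT18, against 10.38, 10.31 and 10.24 in HFN ZT6, a difference of 0.44 (SE 0.17, adjusted p = 0.519), and of 0.33 without replicate 1. HF and CD livers at ZT6 differed by -0.37 in Rpsa (adjusted p = 0.811). Rps7, Rps14 and Rps24 gave no further call in any comparison, and Rps27l, a copy of Rps27 that p53 induces, differed between HFN and HF at ZT18 by -0.14 (95% confidence interval -0.38 to 0.10), or by -0.10 without replicate 1. That interval leaves room for a difference in either direction.

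**Figure D5:**
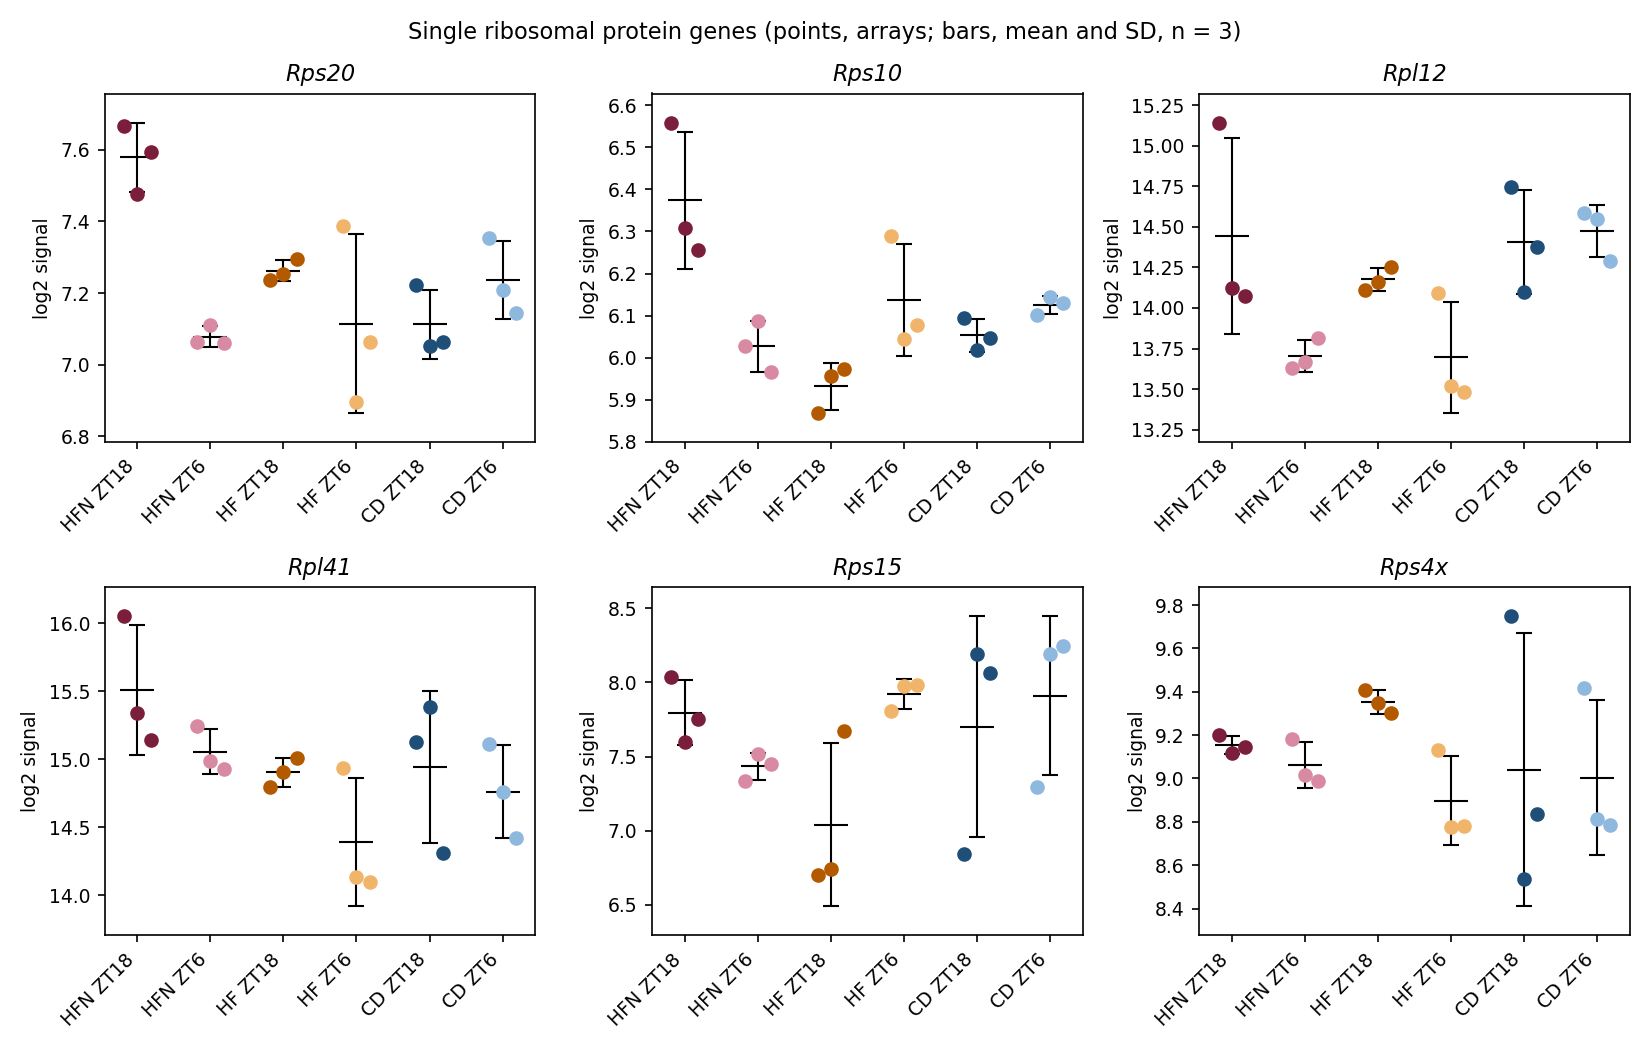
Log2 signal on each array (points) with the mean and SD of the 3 mice per group, for Rps20, Rps10, Rpl12, Rpl41, Rps15 and Rps4x. Rps20 and Rps10 are highest in HFN ZT18 by mean, while Rps15 and Rps4x spread widely within CD ZT18, from 6.84 to 8.19 and from 8.54 to 9.75.

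The large subunit carries the peptidyl transferase centre, the exit tunnel and flexible stalks. Rpl12, at the base of the stalk that recruits elongation factors, was the member with the largest difference from chow by day. It was at 13.63, 13.67 and 13.81 in HFN ZT6 livers and 14.09, 13.52 and 13.48 in HF ZT6 livers, against 14.58, 14.55 and 14.29 in CD ZT6 livers. Both groups on the high-fat diet lay below chow at ZT6 without overlap, by -0.77 in HFN (adjusted p = 0.799) and -0.78 in HF (SE 0.25, adjusted p = 0.546). At ZT18 Rpl12 was at 15.14, 14.12 and 14.07 in HFN, 14.11, 14.16 and 14.26 in HF, and 14.74, 14.10 and 14.38 in CD, where the groups overlapped. From ZT6 to ZT18 in HFN mice it differed by 0.74 (adjusted p = 0.423), and by 0.39 without replicate 1 (adjusted p = 0.546). Rplp0, the protein that anchors the stalk's acidic proteins Rplp1 and Rplp2, was at 11.52, 11.22 and 11.05 in HFN ZT18, against 11.08, 11.07 and 10.98 in HFN ZT6 and 10.86, 10.86 and 11.12 in HF ZT18. Its night change in HFN mice was 0.22 (95% confidence interval -0.07 to 0.50) and was 0.090 without replicate 1, and HFN exceeded HF at ZT18 by 0.32 (SE 0.13, adjusted p = 0.871), or by 0.19 without replicate 1. Rplp1 and Rplp2 were not analysed here by name.

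Around the exit tunnel, Rpl31 was at 6.51, 6.55 and 6.22 in HFN ZT18, against 5.94, 5.97 and 5.93 in HFN ZT6. The difference was 0.48 (SE 0.14, adjusted p = 0.309), and it was 0.43 without replicate 1. Rpl35, which with Rpl31 borders the tunnel's opening, was at 13.54, 12.92 and 12.49 in HFN ZT18, against 12.23, 12.37 and 12.37 in HFN ZT6, a difference of 0.66 (SE 0.23, adjusted p = 0.469) and of 0.38 without replicate 1. Rpl39, inside the tunnel, differed by 0.39 (adjusted p = 0.569), and by 0.22 without replicate 1. Rpl4 was close to level in the same comparison, at 0.06 (95% confidence interval -0.19 to 0.32), with the repeated value 16.29 on every HFN ZT18 array.

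Rpl8, a protein of the peptidyl transferase centre, owed little of its pattern to replicate 1. It was at 10.41, 10.49 and 10.28 in HFN ZT18, 9.99, 10.31 and 9.80 in HFN ZT6, 10.10, 10.02 and 10.19 in HF ZT18, and 10.35, 10.34 and 10.40 in HF ZT6. HFN livers were thus above HF livers at night and below them by day, without overlap at either time. At ZT6 HFN differed from HF by -0.33 (SE 0.11, adjusted p = 0.635), and in HF mice ZT18 differed from ZT6 by -0.26 (adjusted p = 0.33). The difference between the night changes of HFN and HF mice was 0.61 (adjusted p = 0.751), and it was 0.61 (adjusted p = 0.502) without replicate 1. Rpl10a, at the tip of the other stalk, where spent tRNA leaves, had a difference between night changes of 0.71 (SE 0.22, adjusted p = 0.751), and of 0.55 without replicate 1. Markers of other liver cells were also above 0 in this comparison, as given below, and their part in these values was not tested.

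Rpl41, the shortest ribosomal protein, had the widest spread of group means. It was at 16.05, 15.34 and 15.14 in HFN ZT18, 15.24, 14.99 and 14.93 in HFN ZT6, 14.80, 14.90 and 15.01 in HF ZT18, 14.94, 14.14 and 14.10 in HF ZT6, 15.13, 15.38 and 14.31 in CD ZT18, and 15.11, 14.76 and 14.42 in CD ZT6. HFN exceeded HF by 0.66 at ZT6 (SE 0.30, adjusted p = 0.711), though 1 HF liver lay within the HFN range. The other Rpl41 cluster, whose identifier carried the gene's own chromosome, differed there by 0.04 (limma adjusted p = 0.984). Night against day in HFN mice gave 0.46 (adjusted p = 0.837), and 0.19 without replicate 1. Rpl11, which with Rpl5 and 5S RNA can bind Mdm2 and so release p53, was nearly flat, with a night change of 0.05 in HFN mice (95% confidence interval -0.12 to 0.21). Its 3 ZT18 values (6.05, 6.00 and 6.01) nonetheless lay just above its 3 ZT6 values (6.00, 5.93 and 5.99), which shows how small a shift separates 3 arrays from 3.

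The other comparisons gave no call among the members. In CD mice night against day had a median of -0.01 with 15 of 38 above 0. There limma called 0 members, against 0.376% of all clusters, and 0 passed at an unadjusted p, against 4.15%. The 3 members with the lowest p were Rpl22 (-0.21, adjusted p = 0.824), Rpl27 (0.36, adjusted p = 0.903) and Rps9 (-0.15, adjusted p = 0.918). In HF mice the median was 0.04 with 22 of 38 above 0, and 0 members were called by limma, against 0.866% of all clusters. Rps15 alone passed there at an unadjusted p, against 8.83% of all clusters. In CD and HF livers, where the test called more clusters at large than in HFN livers, the members' median lay near 0. Without the 5 arrays of high background, 2 of them HF ZT6 livers, it was -0.10 in HF mice.

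By day, most members were lower on the high-fat diet than on chow. HF against CD at ZT6 had a median of -0.11 with 10 of 38 above 0, against 53.1% above 0 over all clusters. By limma 0 members were called, against 0.044% of all clusters, and 3 passed at an unadjusted p (Rpl12, Rpl39l and Rpsa), against 3.36%. All 3 were lower in HF, where 1.51% of all clusters were, and HF livers lay below CD livers without overlap for 4 members (Rpl11, Rpl12, Rpl39l and Rplp0), against 4.79% of all clusters. HFN against CD at ZT6 had a median of -0.12 with 9 of 38 above 0, and 0 members were called by limma, against 0.0318% of all clusters. Rpl12 passed at an unadjusted p, against 2.12% of all clusters and 0.898% of all clusters lower. HFN livers lay below CD livers without overlap for 12 members, against 3.55% of all clusters: Rpl11, Rpl12, Rpl19, Rpl35, Rpl39l, Rpl6, Rps10, Rps18, Rps20, Rps24, Rps29 and Rps9. Both comparisons use the same 3 CD livers, and neither uses HFN ZT18 replicate 1. The 5 arrays with the highest negative-control medians include 2 of the HF ZT6 livers and 1 of the CD ZT6 livers, and without those 5 the median of HF against CD was 0.02. Without HF ZT6 replicate 2 alone it was -0.02. Kupffer cell markers averaged 7.95 to 8.37 in HFN ZT6 and 8.59 to 9.20 in HF ZT6, against 7.78 to 8.51 in CD ZT6, and their part in these results was not tested. The shared clusters lay on the same side, with 4 of 53 above 0 in each and medians of -0.18 for HFN and -0.13 for HF.

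HFN against HF at ZT6 was balanced, with a median of -0.00 and 19 of 38 above 0. By limma 0 members and 0% of all clusters were called, and 2 members (Rpl41 higher, Rpl8 lower) passed at an unadjusted p, against 4.07% of all clusters. HF against CD at ZT18 had a median of -0.03, and 0 members were called by limma, against 0.606% of all clusters. The 2 that passed at an unadjusted p, against 8.87%, were lower in HF: Rpl7a (-0.33, adjusted p = 0.29) and Rps28. The other Rpl7a cluster, whose identifier carried the gene's own chromosome, differed there by -0.08 (limma adjusted p = 0.755). The third lowest p was that of Rps18 (-0.21, adjusted p = 0.255).

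The night changes of 2 groups were also set against each other. Between HFN and HF mice the difference in night change had a median of 0.19 over members, with 25 of 38 above 0. Over all clusters the median was 0.01, with 53% above 0. By limma 0 members and 0% of all clusters passed the test, and 9 members passed at an unadjusted p, all higher, against 5% of all clusters. They were Rpl10a, Rpl19, Rpl38, Rpl8, Rps10, Rps15, Rps20, Rps28 and Rps29. Without replicate 1 the members' median was 0.06 with 23 of 38 above 0, against a median of 0.05 over all clusters. In that fit 4 members passed at an unadjusted p, against 4.5% of all clusters higher. In this comparison 11 of 11 Kupffer cell markers were above 0, with a median of 1.11, or 0.76 without replicate 1. All 6 endothelial markers (median 0.71) and all 7 stellate cell markers (median 0.33) were above 0 as well. The part of these cells' RNA in the members' difference was not tested. Between HF and CD mice the median was 0.04, or -0.14 without the 5 arrays of high background, and by limma 0 members and 0% of all clusters passed, with 0 members at an unadjusted p, against 8.08% of all clusters. The 3 lowest p there belonged to Rpl4 (0.36, adjusted p = 0.547), Rpl11 (0.22, adjusted p = 0.547) and Rpl22 (0.31, adjusted p = 0.557).

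Clusters of the same symbol did not always give the same size of change. Rpl35 had another cluster, whose identifier carried the gene's own chromosome. From ZT6 to ZT18 in HFN mice it differed by 0.35 where the member's cluster differed by 0.66. For Rpl41 the values were 0.26 and 0.46, and for Rpl27 0.05 and 0.26. Rps26 had 3 clusters, which gave 0.24, 0.22 and 0.30 there but 0.83, 0.94 and 0.14 for HFN against HF at ZT18. A single member's value in these genes is therefore less certain than its SE. The 53 shared clusters repeated the set's pattern with 0 calls by limma in every comparison, although 10 passed at an unadjusted p, higher at ZT18, in HFN mice, against 2.84% of all clusters. Without replicate 1, 3 did, against 4.42%. From ZT6 to ZT18 in HFN mice 49 of 53 were above 0 with a median of 0.23, and without replicate 1 39 were, with a median of 0.11. HFN against HF at ZT18 gave 48 of 53 and a median of 0.17, and without replicate 1 35 and 0.08.

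Named ribosomal protein pseudogenes, many of which are processed copies that share sequence with the members, moved alongside. Of 208, 186 were above 0 from ZT6 to ZT18 in HFN mice, with a median of 0.25, and without replicate 1 146 were, with a median of 0.11. By day they were lower in HF than in CD livers, with 23 of 208 above 0 and a median of -0.19. That comparison includes 2 HF ZT6 livers and 1 CD ZT6 liver of the 5 arrays of high background. Without those 5 the members' own median turned to 0.02 from -0.11, and the part of background in the pseudogenes' difference was not tested. Rpl31-ps5 was the 1 pseudogene called, at 0.54 for HFN against CD at ZT18 (limma adjusted p = 0.023), and its adjusted p was 0.0515 without replicate 1.

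Near-copies with tissue-restricted expression lay near the negative controls. Rpl10l, a testis copy of Rpl10, ranged from 4.67 to 5.20 over the 18 arrays and was above the negative-control median on 15 of them, and Rpl39l, a testis copy of Rpl39, from 3.71 to 4.397. Rpl39l, at or below that median on every array, differed by -0.38 for HF against CD at ZT6 (adjusted p = 0.497), where the negative-control median was 4.90 in HF and 4.73 in CD. Fau, which encodes the small-subunit protein Rps30 fused to a ubiquitin-like protein, falls outside the symbol rule. It was at 12.02, 12.08 and 11.92 in HFN ZT18 livers, against 11.42, 11.51 and 11.25 in HFN ZT6 livers and 11.23, 11.35 and 11.44 in HF ZT18 livers. The 3 HFN ZT18 livers were the highest of all 18, and replicate 1 was not the highest of them. The night change of Fau in HFN mice was 0.61 (SE 0.12, adjusted p = 0.0587) and was 0.61 without replicate 1 (adjusted p = 0.101), and HFN exceeded HF at ZT18 by 0.67 (SE 0.12, adjusted p = 0.45), or by 0.66 without replicate 1.

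Other genes of the translation machinery followed separate courses. The 74 mitochondrial ribosomal proteins measured build the ribosome of mitochondria. At ZT18, 64 of them had a higher mean in HFN than in CD livers (median difference 0.18), against 54.3% of all clusters. In HF livers 61 had a higher mean than in CD livers at ZT18 (median 0.15), against 49.8% of all clusters. By limma 2 of 74 were called in each, against 1.06% of all clusters for HFN and 0.606% for HF. Over CD livers Mrpl16 rose by 0.77 in HFN (adjusted p = 0.0313) and 0.78 in HF (adjusted p = 0.0372), and Mrpl45 by 0.54 in each (adjusted p = 0.0298 in HFN and 0.0384 in HF). Both stayed called in HFN without replicate 1, at 0.89 for Mrpl16 and 0.61 for Mrpl45. Mrpl16 was also higher at ZT18 than at ZT6 in HF mice, by 0.91 (adjusted p = 0.0136). HFN and HF livers at ZT18 differed by a median of 0.00, with 37 of 74 above 0, or 52 of 74 and a median of 0.064 without replicate 1. On a list of 18 initiation factors, which did not hold the factor Eif4b given below, 1 passed in any comparison. This was Eif4e, the cap-binding protein. Eif4e was at 10.38, 10.54 and 10.43 in HFN ZT18, against 10.08, 9.54 and 9.55 in CD ZT18, a difference of 0.73 (SE 0.14, adjusted p = 0.0216). It remained called without replicate 1, at 0.76 (adjusted p = 0.0313). CD ZT18 replicates 2 and 3, with Eif4e at 9.54 and 9.55, are among the arrays of high background. Mrpl16 was at 8.37 and 8.41 there, against 8.77 in CD ZT18 replicate 1, and Mrpl45 at 7.60 and 7.91, against 7.84. The part of background or nuclear RNA in the differences of Eif4e and the mitochondrial ribosomal proteins from CD ZT18 livers was not tested. Of 17 elongation factors and other TOP mRNAs, Eif4b, a helicase cofactor, fell at night by 0.82 in CD mice (adjusted p = 0.0014) and by 0.58 in HF mice (adjusted p = 0.0105), and in HFN mice it differed by -0.45 (adjusted p = 0.0712). That list had 1 of 17 above 0 from ZT6 to ZT18 in CD mice and 13 of 17 in HFN mice (median 0.092), against 53.3% of all clusters in HFN mice. Without replicate 1 it had 11 of 17 above 0 in HFN mice, with a median of 0.026.

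Ribosome biogenesis genes gave few calls. Of all clusters, limma called 0.376% for night against day in CD mice, 0.866% in HF mice and 0.246% in HFN mice. At ZT18 it called 0.606% for HF against CD and 1.06% for HFN against CD. Of 46, Nop16, a nucleolar factor of the large subunit, rose at night in CD mice by 0.64 (adjusted p = 0.00314) and differed from CD at ZT18 by -0.44 in HFN (adjusted p = 0.019, or 0.0386 without replicate 1) and -0.47 in HF (adjusted p = 0.0157). Ubtf, a factor of RNA polymerase I, differed at night in CD mice by -0.46 (adjusted p = 0.0275), and Sbds, which readies the large subunit, exceeded CD in HF livers at ZT18 by 0.64 (adjusted p = 0.0323). Among 29 genes of mTORC1 and its targets, Ddit4, an inhibitor of mTORC1, rose at night by 0.82 in HFN mice (adjusted p = 0.00977, or 0.00875 without replicate 1) and by 0.78 in CD mice (adjusted p = 0.0101). In CD mice Pdcd4 differed at night by -1.16 (adjusted p = 0.0451), and in HF mice Eif4ebp1 by -0.46 (adjusted p = 0.0481) and Eef2k by -0.44 (adjusted p = 0.0245). Of 8 p53 targets, Cdkn1a, an inhibitor of the cell cycle, rose at night by 3.98 in HFN mice (adjusted p = 0.00114, or 0.0013 without replicate 1) and by 3.14 in HF mice (adjusted p = 0.00443), and was higher in HFN than in CD at ZT18 by 2.87 (adjusted p = 0.00849, or 0.00511 without replicate 1). Ccng1 was higher at ZT18 than in CD by 1.56 in HFN (adjusted p = 0.0391, or 0.0865 without replicate 1) and by 1.72 in HF (adjusted p = 0.0323). CD ZT18 replicates 2 and 3 are among the 5 arrays of high background. Ccng1 was at 9.42 and 9.39 there, against 10.36 in CD ZT18 replicate 1, and Sbds at 7.89 and 8.09, against 8.39. The part of background or nuclear RNA in these differences was not tested. Both TOP-bearing snoRNA host genes and the 5 Rps6ka kinases measured gave 0 calls by limma, with lowest adjusted p of 0.201 and 0.0721.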

How the data were processed

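The deposited table holds log2 signals of 72688 probe sets on 18 Clariom D arrays, 1 liver each. The authors made it with the Transcriptome Analysis Console at default settings. The summarization method and the genome build were not found in the sources read. The 6732 control probe sets were set aside, leaving 65956 transcript clusters, and symbols came from the platform table. The values were used as deposited. One mean per group was fitted to all 18 arrays (limma 3.58.1, R 4.3.3, two-sided, 12 residual degrees of freedom), with Benjamini-Hochberg adjustment over all clusters, after testing on simulated data. The number of arrays limits the precision, and the median SE of a member's pairwise difference was 0.13. Mice were the replicates.

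Members and lists were chosen with earlier results of these data known. Genes were named where they passed the test (or had the 3 lowest p in a comparison), had the extreme levels or ranges, were near-copies, or had a listed role. Alternatives were other filters, normalizations, thresholds, variance models, sets of arrays and of clusters, a background covariate and a replicate block. Leaving out HFN ZT18 replicate 1 with the 5 high-background arrays, adding shared clusters and keeping members on their own chromosome were chosen after the data were seen. Non-overlapping groups and genes of interest outside the rule (Fau) are descriptions. RefSeq sequences are of GRCm38.p6. Levels of 53 clusters shared between genes are given without names.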

Additional observations from a re-analysis of the deposited data

How the results depend on the processing

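The 38 members' calls and medians were recomputed under each alternative, and the cause of a difference was not tested except where named. With an unadjusted p the counts of members past the threshold were 1 for night against day in HF mice, 10 in HFN mice, 3 for HF against CD at ZT6, 2 at ZT18, 2 for HFN against HF at ZT6, 6 at ZT18, 1 for HFN against CD at ZT6 and 9 for the difference in night change between HFN and HF mice. The call of Rps20 for HFN against CD at ZT18 was absent (0 members) with only the compared groups in the fit, after quantile normalization, with an intensity trend and robust prior, with the negative-control median as a covariate, without the 5 arrays of highest negative-control median, and without those and HFN ZT18 replicate 1. Rps20 was called (1 member) for night against day in HFN mice with only clusters above the median level, with that covariate and without the 5 arrays. Without all 6 arrays 1 member, Rpl12, was called for HFN against CD at ZT6 (-0.86, limma adjusted p = 0.0216).

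Quantile normalization moved the median over members to 0.12 for night against day in HFN mice, 0.069 for HFN against HF at ZT18 and 0.055 for the difference in night change between HFN and HF. The covariate moved it to -0.12 for HF against CD at ZT18, -0.11 for HFN against HF at ZT6 and -0.069 for the difference in night change between HF and CD. Without the 5 arrays it was -0.10 for night against day in HF mice, 0.020 for HF against CD at ZT6, -0.13 for HFN against HF at ZT6, -0.016 for HFN against CD at ZT18, and -0.14 (HF and CD) and 0.35 (HFN and HF) for the differences in night change. Without the 6 arrays it was again -0.10 for night against day in HF mice, 0.020 for HF against CD at ZT6, -0.13 for HFN against HF at ZT6 and -0.14 for the difference in night change between HF and CD. It was 0.12 for night against day in HFN mice, 0.059 for HFN against HF at ZT18 and -0.044 for HFN against CD at ZT18. In both of these sets of arrays 3 named values turned sign: Rpl22 to 0.020 for night against day in CD mice, and Rpl4 to -0.0033 and Rpl22 to -0.088 for the difference in night change between HF and CD.

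Leaving out each array in turn gave 0 to 1 called member for night against day in HFN mice (1 without HF ZT6 replicate 1 or 2), 0 to 3 for HF against CD at ZT18 (3 without CD ZT18 replicate 1), 0 to 1 for HFN against CD at ZT18 and 0 to 0 in the other comparisons. The median ran from -0.07 to -0.01 for night against day in CD mice, 0.01 to 0.07 in HF mice and 0.12 to 0.32 in HFN mice (lowest without HFN ZT18 replicate 1, highest without replicate 3). It ran from -0.15 to -0.023 for HF against CD at ZT6 (-0.023 without HF ZT6 replicate 2), -0.08 to -0.00 at ZT18, -0.06 to 0.04 for HFN against HF at ZT6 and 0.059 to 0.26 at ZT18, -0.13 to -0.08 for HFN against CD at ZT6 and 0.04 to 0.16 at ZT18, and -0.00 to 0.09 (HF and CD) and 0.061 to 0.33 (HFN and HF) for the differences in night change. Group levels moved by less than the spread between replicates.

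With the replicate number as a block (replicate block) 1 member, Rps20, was called for night against day in HFN mice (adjusted p = 0.0477), and 0 to 1 elsewhere as without it. The numbers pair no samples by the labels: residual correlations of same-numbered arrays ran from -0.51 to 0.57 over 45 pairs, and 8 of 18 arrays correlated best with their own number. As no member was at the ceiling, leaving such members out changed nothing. The 3 arrays per group limit what could be detected.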
